A study of Mus musculus with 25 samples.

Results

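The expression trend from 2 to 24 months of age was followed in brain hemispheres of male C57BL/6 mice, an inbred strain. RNA sequencing libraries were made from total RNA with the TruSeq RNA kit, and all mice carried the same strain background with no treatment or engineered allele named in the labels. The members are the 20 libraries of mice aged 2, 9, 15 and 24 months, 5 at each age, chosen by their age label out of 25 libraries in the series. The 5 libraries of 30 months were left out of every slope and are given once, beside the line. The labels do not say whether each library came from its own mouse, so p-values here measure only the spread between these libraries, which may be technical. A hemisphere holds neurons, glia and cells of the vessels, and in such bulk RNA a smaller number of cells of a type and less RNA per cell cannot be told apart.

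In the ageing rodent brain, glia are known to take up an immune programme: microglia and astrocytes make more complement, major histocompatibility complex (MHC) class I and lysosomal proteins. Complement is a cascade of secreted proteins that tags targets for uptake, and in the brain C1q, C3 and C4 also mark synapses for removal by microglia. Over the same life span the supply of new neurons and new oligodendrocytes from dividing precursors is known to decline. These are background statements and not results of these libraries.

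For each gene, 1 slope per month was fitted over the 20 libraries on the log2 scale, so that a straight line means the same percent change in every month.  A slope was called where its p, from edgeR's quasi-likelihood test and adjusted by the Benjamini-Hochberg method over all 17472 genes tested, was below 0.05. Levels are given in CPM, counts scaled to a common library size with edgeR's TMM factors, and are not divided by gene length. Slopes and rates carry ± SE from the fit, and levels carry ± SD over the 5 libraries of an age. Library totals were 17800113 to 31261121 counts. The neuronal transcripts Snap25 (2060 to 2890 CPM) and Slc17a7 (900 to 1110 CPM), the astrocytic Aqp4 (143 to 200 CPM), the myelin transcript Mbp (2220 to 3030 CPM) and the microglial P2ry12 (35.4 to 43 CPM) were present in every one of the 20 libraries.

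Some properties of the libraries moved with age. Transcripts of the liver were present in part of them: Alb, the serum albumin of hepatocytes, ranged from 17.9 to 171 CPM in 12 libraries, against 7.73 CPM or less in the other 8. The 12 were 1 of the 5 libraries at 2 months (replicate 3), 2 at 9 months, 4 at 15 months and all 5 at 24 months. The median over libraries of the mean log2 CPM of 27 liver transcripts was -1.45, -0.908, 1.62 and 2.54 at the 4 ages. Calls are therefore also given with this liver level as a covariate, which left 914 called slopes in all (525 rises and 389 falls, 854 of them among the 2927 of the fit without it). The liver level and age rose together, so a fit with both cannot fully tell them apart. The GC gap was taken over protein-coding genes, with each gene's log2 CPM centred on its mean over the 20 libraries. It is the median of the 10% of these genes with the highest GC content minus that of the 10% with the lowest. The gap was -0.019 to 0.081 log2 at 2 months, -0.063 to 0.12 at 9 months and -0.25 to -0.086 at 15 months. At 24 months it was 0.059 to 0.16, against 1.1 to 2.1 in 4 of the 5 libraries of 30 months. Ttr, the transthyretin of the choroid plexus, had 17.9 CPM in 1 library of 9 months (replicate 1), and the remaining 19 ranged from 368 to 645 CPM.

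**Figure D1:**
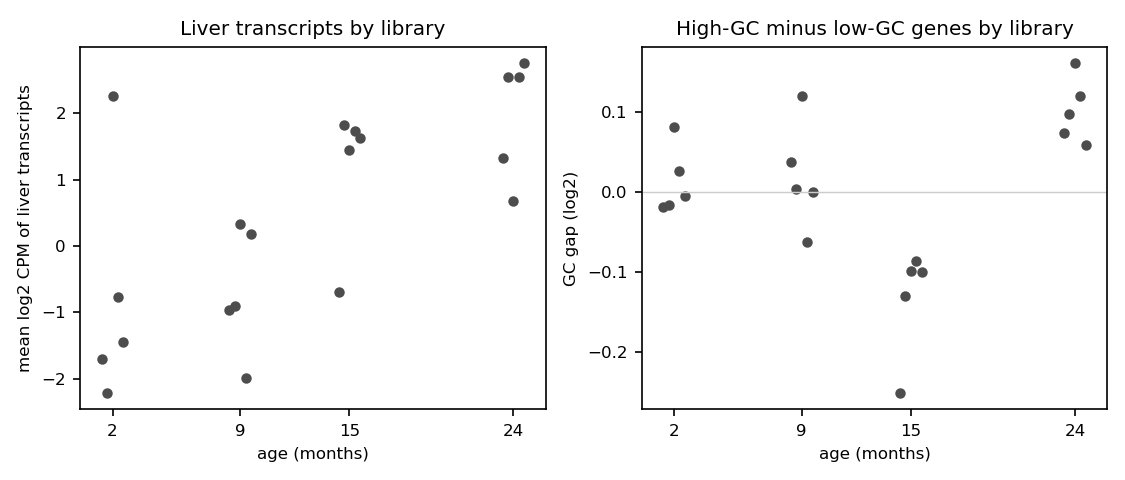
Mean log2 CPM of 27 liver transcripts (left) and the GC gap (right) in each of the 20 libraries, against age in months. The GC gap is the log2 difference of medians between the 10% of protein-coding genes highest and the 10% lowest in GC content. Each point is 1 library. The liver level was high in 1 library of 2 months and in most libraries of 15 and 24 months, and the GC gap was below 0 in all 5 libraries of 15 months.

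Of the 17472 genes tested, 2927 (16.8%) had a called slope: 1474 rose (8.44%) and 1453 fell (8.32%). Counts of called members in the gene lists below are to be read beside these shares. The unadjusted p was below 0.05 for 5384 genes. The changes were mostly slow. The median called rise was 1.06% per month (quartiles 0.645 and 1.87) and the median called fall was -0.606% per month (quartiles -0.895 and -0.46). Over the 22 months of the line, 369 genes rose and 130 fell by at least 1.5-fold, and 150 rose and 27 fell by at least 2-fold. The steepest single slopes were 16.1% and -6.33% per month. With library size scaled by total counts alone, 1769 rose and 1148 fell, so the share of rises was 60.6% in place of 50.4%, and the median slope over all genes moved from 0.000162 to 0.00102 log2 per month. The 5 values of 24 months did not overlap those of 2 months for 894 of the 1474 rises and 930 of the 1453 falls. Over all 17472 genes tested, such a gap was found upwards for 1243 (7.11%) and downwards for 1304 (7.46%). Slopes were called from the same values, so the larger share among called genes is a description.

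C4b encodes complement component C4, which is cleaved early in the classical pathway and binds to its targets (chr17:34728380-34743882 of GRCm38, minus strand, ENSMUSG00000073418). Its level was 28.2, 21.6, 23.8, 22 and 19.7 CPM in the 5 libraries of 2 months. It was 48.2, 37.7, 42.3, 30.6 and 32.4 CPM at 9 months and 43.5, 47.6, 44.9, 52.5 and 49.8 CPM at 15 months. At 24 months it was 163, 119, 102, 89.3 and 87.7 CPM. Every library of 24 months lay above every younger library, and every library of 9 months lay above every library of 2 months, while 9 and 15 months overlapped. C4b rose by 0.102 ± 0.0076 log2 per month (SE; 7.32% per month, 4.73-fold over 22 months, adjusted p = 1.74e-07). Of the variation between its 4 age means in log2 CPM, 97.9% lay on the line, and a test of a departure from the line did not pass (adjusted p = 0.23). C4b has a near-identical neighbour, C4a, and how reads were divided between the 2 genes is not known.

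Gpr17, a receptor of oligodendrocyte precursors that have begun to differentiate, had 99.8% of its age variation on the line, the largest share among annotated genes that fell by at least 1.5-fold and had a mean of at least 2 CPM. It was at 47.7, 68.8, 60.4, 71.7 and 68.9 CPM at 2 months and at 51.3, 50.6, 42, 51.5 and 41.9 CPM at 9 months. It was at 45.3, 39, 39.4, 35.8 and 35.3 CPM at 15 months and at 31.2, 25.8, 25.7, 31.5 and 27.2 CPM at 24 months. The 5 libraries of 24 months were below all others, and replicate 1 of 2 months lay within the range of 9 months. Gpr17 fell by 0.0526 ± 0.0043 log2 per month (SE; -3.58% per month, adjusted p = 1.45e-07), a 2.23-fold fall over 22 months. Its rate was -0.0596 log2 per month from 2 to 9 months, -0.048 from 9 to 15 and -0.0512 from 15 to 24.

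Met, the receptor tyrosine kinase for hepatocyte growth factor, which in the forebrain marks axons of cortical projection neurons, also fell, but not along a line (chr6:17463800-17573980, GRCm38). It was at 11.8, 12.7, 13, 12.9 and 14.2 CPM at 2 months and at 7.09, 8.1, 8.12, 7.95 and 8.07 CPM at 9 months. At 15 months it was at 6.64, 7.48, 6.78, 6.5 and 6.64 CPM, and at 24 months at 6.45, 5.8, 6.07, 6.03 and 6.84 CPM. All libraries of 2 months stood above all others, and 15 and 24 months overlapped. The slope was -0.0467 ± 0.0049 log2 per month (SE; adjusted p = 5.71e-07), with a departure from the line at adjusted p = 3.31e-05. Its rate was -0.103 ± 0.0094 log2 per month from 2 to 9 months and -0.0139 ± 0.0079 from 15 to 24 months, a difference of 0.0887 (adjusted p = 1.16e-05). Of the 12 tested genes of a list of HGF and Met signalling, 1 rose and 1, Met itself, fell, and with the liver covariate 0 rose and 1 fell. Over all genes tested 8.44% rose and 8.32% fell, so these counts lie near the common share.

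Pcdhb9, 1 of the clustered beta protocadherins, cell surface proteins that give neurons an identity for self-recognition, rose mostly before 15 months. It was at 12.4, 12.1, 11.1, 12 and 11.4 CPM at 2 months and at 17.1, 16, 16.9, 15.4 and 19.9 CPM at 9 months. It was at 20.2, 22.2, 21.1, 22.2 and 19.7 CPM at 15 months and at 21.1, 23.2, 21.7, 21.8 and 23.4 CPM at 24 months. The 2 month libraries were the lowest with a clear gap, and 15 and 24 months overlapped. Its slope was 0.0397 ± 0.0043 log2 per month (SE; 2.79% per month, adjusted p = 1.24e-06), its departure had an adjusted p of 7.72e-05, and 86% of its age variation lay on the line. Its rate fell from 0.0761 log2 per month (2 to 9 months) to 0.00831 (15 to 24 months), a difference of -0.0678 (adjusted p = 4.7e-05).

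The slopes of these 4 genes stayed called with the liver covariate and in the 12 libraries with Alb at 10 CPM or more. In the 8 libraries with Alb below 10 CPM, none of which was of 24 months, C4b (adjusted p = 0.0872) and Gpr17 (adjusted p = 0.127) were not called, while Met and Pcdhb9 were.

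**Figure D2:**
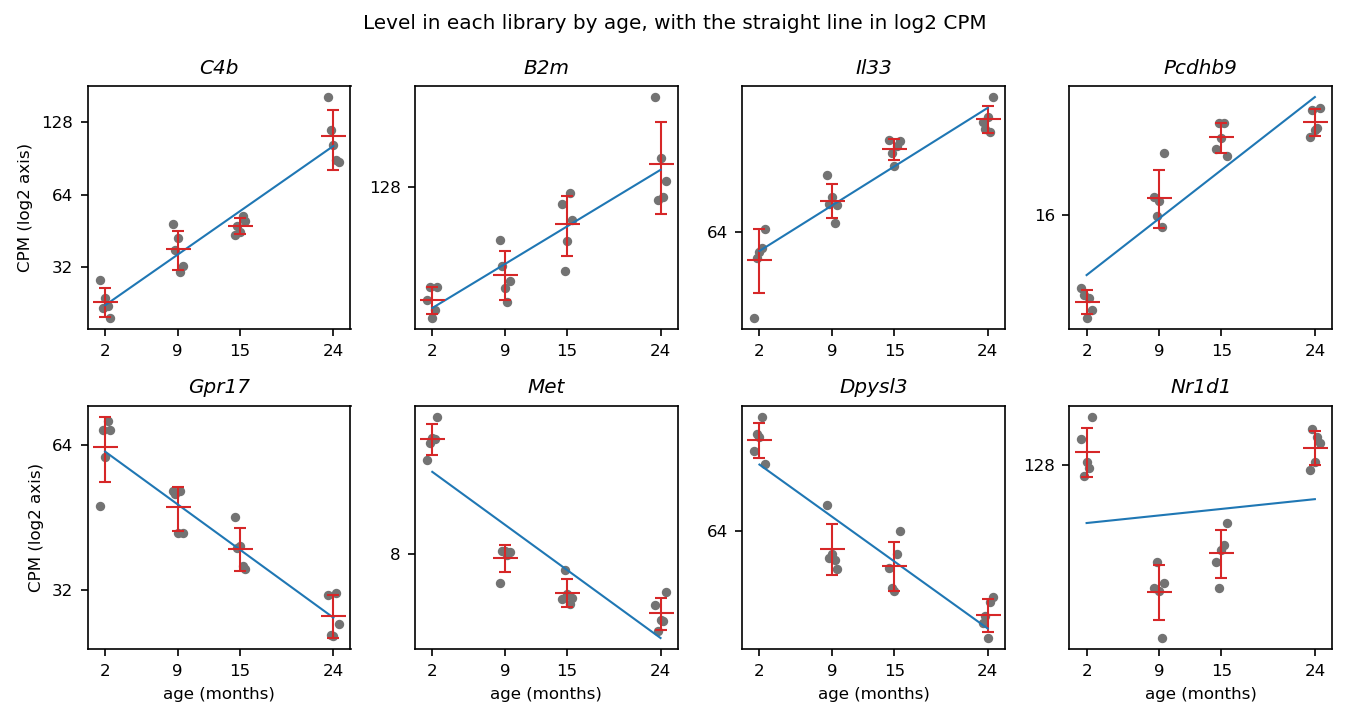
Level in CPM (log2 axis) against age in months for C4b, B2m, Il33, Pcdhb9, Gpr17, Met, Dpysl3 and Nr1d1; each grey point is 1 library, red bars are the mean and SD of 5 libraries, and the blue line is the fitted slope. C4b, B2m and Gpr17 follow the line, Met, Pcdhb9 and Dpysl3 change mostly before 9 months, and Nr1d1 is low at 9 and 15 months and high at 2 and 24 months.

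Most tested genes of the MHC class I route of antigen presentation rose. MHC class I molecules carry peptides to the cell surface for inspection by T cells: the immunoproteasome cuts the peptides, the Tap transporter moves them into the endoplasmic reticulum, and a heavy chain binds them together with B2m. Of 10 tested class I heavy chains and B2m, 9 rose and 0 fell, where 8.44% of all genes tested rose (median slope 0.0397 log2 per month, against 0.000162 over all genes), and the count was 9 with the liver covariate. Of 11 tested genes of the immunoproteasome and peptide loading, 9 rose and 0 fell (7 with the liver covariate, 4 without the libraries of 24 months). B2m was at 82, 86.2, 76.4, 78.7 and 86.3 CPM at 2 months, 104, 93.8, 86, 81.3 and 88.5 at 9 months, 120, 92, 104, 125 and 112 at 15 months and 182, 122, 143, 123 and 131 at 24 months. Its values overlapped between neighbouring ages but not between 2 and 24 months. B2m rose by 0.0365 ± 0.0045 log2 per month (adjusted p = 2.55e-05), with 98.1% of its age variation on the line. Tap2, a chain of the peptide transporter, rose from 5.88 ± 0.574 CPM (SD, n = 5) at 2 months to 10.3 ± 1.58 CPM at 24 months, 0.0356 ± 0.0042 log2 per month.

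The steepest class I genes varied between libraries of 1 age as well as with age. Psmb9, a catalytic subunit of the immunoproteasome, rose by 0.0636 ± 0.0099 log2 per month, 2.64-fold over 22 months. It was at 1.27 to 1.5 CPM at 2 months, 1.06 to 2.05 at 9 months, 1.64 to 2.85 at 15 months and 2.11 to 5.52 at 24 months. H2-Q7, a class I heavy chain, rose by 0.0999 ± 0.019 log2 per month (adjusted p = 0.00176). Its values were 4.03, 1.17, 2.46, 5 and 4.07 CPM at 15 months and 6.28, 3.15, 4.66, 2.71 and 2.38 CPM at 24 months, and replicate 2 of 15 months and replicate 1 of 24 months were also the lowest and highest of their ages for Psmb9. H2-Q4 rose by 0.0791 ± 0.012 log2 per month, and H2-T22 by 0.0252 ± 0.0032. Nlrc5, the transcriptional activator of class I genes, rose by 0.0626 ± 0.014 log2 per month (adjusted p = 0.00437). The heavy chain genes are close copies of one another, and how their shared reads were counted is not known.

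Promoters of these genes are shown because many are known to answer to interferon and NF-kB, and because the genes moved together. In RefSeq's table of promoters (GRCm38.p6), the 250 bases before each gene's start were searched on both strands for the core of the interferon-stimulated response element (GAAA, any 2 bases, GAAA) and for an NF-kB site (the letters in capitals in the H2-D1 line); the motifs were chosen with the values of these genes known. In the lines that follow, 50 bases around a match are written 5′ to 3′ on the gene's strand, with the match in capitals. For Gbp2 and H2-T22 the match is on the opposite strand. Gbp2, a guanylate-binding GTPase, is on the list of interferon response genes.
B2m (chr2:122147528-122147577, plus strand): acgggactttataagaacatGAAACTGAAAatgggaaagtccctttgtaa
H2-T22 (chr17:36042904-36042953, minus strand): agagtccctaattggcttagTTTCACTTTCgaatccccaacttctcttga
Gbp2 (chr3:142620584-142620633, plus strand): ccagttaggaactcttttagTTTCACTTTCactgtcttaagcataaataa
H2-D1 (chr17:35262903-35262952, plus strand): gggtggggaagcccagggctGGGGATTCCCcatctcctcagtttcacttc
H2-K1 (chr17:34000429-34000478, minus strand): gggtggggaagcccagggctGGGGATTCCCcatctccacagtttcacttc
H2-Q6 (chr17:35424657-35424706, plus strand): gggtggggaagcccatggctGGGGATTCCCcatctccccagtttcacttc
H2-Q7 (chr17:35439002-35439051, plus strand): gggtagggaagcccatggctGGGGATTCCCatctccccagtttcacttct
A gene was counted once, where any of its promoters held an exact match. The interferon element was found in 3.46% of all 27025 genes with a promoter and in 3.13% of the 12540 tested ones. It was found in 6.2% of 1096 rises and in 2.1% of 1048 falls. It stood in 3 of 9 class I genes with a promoter, in 11 of 18 of the interferon list and in 0 of 8 of the immunoproteasome and peptide loading list. The windows of H2-D1, H2-K1, H2-Q6 and H2-Q7 also hold tttcacttc, which is shorter than the Gbp2 match and was not counted. The NF-kB site was found in 0.0999% of all genes with a promoter and in 4 of 9 of the class I list. It was in 0.167% of the tested genes, 0.456% of the rises and 0.0954% of the falls. It was in 0 of 8 of the immunoproteasome and peptide loading list and 0 of 18 of the interferon list. A match describes the letters of the window only. The 4 genes shown here and not described elsewhere were picked for their match: H2-D1 rose by 0.0429 ± 0.0058 log2 per month (SE), H2-K1 by 0.0535 ± 0.0075, H2-Q6 by 0.104 ± 0.017 and Gbp2 by 0.0575 ± 0.015.

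Genes of the interferon response, the programme cells switch on when they sense viruses or interferon, rose in 16 of 23 tested members and fell in 0 (median slope 0.0293 log2 per month). The count was 14 with the liver covariate and 5 without the libraries of 24 months. Ifi27, an interferon-induced membrane protein, followed the line closely: it was at 16.7 ± 1.79 CPM (SD, n = 5) at 2 months, 19.1 ± 1.2 at 9 months, 21 ± 0.879 at 15 months and 25 ± 1.61 at 24 months. Its slope was 0.0265 ± 0.0027 log2 per month (adjusted p = 1.9e-07), with 99.9% of the age variation on the line. Ifit3, which binds foreign RNA, rose by 0.035 ± 0.0056 log2 per month with nearly the same rate in each interval (0.0333, 0.035 and 0.0364 log2 per month). Bst2, a membrane tether of viruses, rose by 0.0405 ± 0.0061 log2 per month, and Parp12, an interferon-induced ADP-ribosyltransferase, by 0.0242 ± 0.0027. Gbp4, another guanylate-binding GTPase, spanned 3.27 to 23.7 CPM at 24 months and its slope (0.0761 ± 0.025 log2 per month, adjusted p = 0.042) was not called without replicate 1 of that age (adjusted p = 0.229). It was also not called without any of 9 other single libraries: replicates 1, 3 and 4 of 2 months (0.0645, 0.0711 and 0.0672), replicates 1 to 5 of 9 months (0.0522 to 0.0569) and replicate 3 of 24 months (0.0639).

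MHC class II molecules, which present peptides on professional antigen-presenting cells, rose in 5 of 7 tested genes and fell in 0. The count was 4 with the liver covariate and 0 in the 12 libraries with Alb at 10 CPM or more. Cd74, the invariant chain, was at 10.7 ± 1.24 CPM (SD, n = 5) at 2 months and at 41.2, 15.8, 20, 14.4 and 14.8 CPM at 24 months, with a slope of 0.0466 ± 0.011 log2 per month (adjusted p = 0.00676). H2-Aa and H2-Ab1, the chains of a class II molecule, rose by 0.0415 ± 0.011 and 0.0431 ± 0.011 log2 per month, with values at 24 months that overlapped those of 2 months. Of 12 lymphocyte genes only 4 were tested, and 3 of them rose (1 without replicate 1 of 24 months, 2 with the liver covariate). Cd79b, a part of the B cell receptor, was at 0.372 ± 0.0816 CPM at 2 months and 0.951 ± 0.744 CPM at 24 months, and its slope (adjusted p = 0.0097) was not called without that library (adjusted p = 0.0709). Chemokines, which attract immune cells, rose in 3 and fell in 1 of 8 tested (3 and 0 with the liver covariate). The count of rises was 5 without any 1 of replicates 1, 2, 4 and 5 of 2 months, 1, 4 and 5 of 9 months, 5 of 15 months and 4 of 24 months. Ccl3, made by microglia, rose by 0.0873 ± 0.016 log2 per month and Cxcl10, made under interferon, by 0.077 ± 0.016, both below 2 CPM in every library. Ccl3 was at 0.474 to 0.721 CPM at 24 months and at most 0.405 CPM at each younger age. It passed the low-count filter only through the libraries of 24 months, so its rise is a description.

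Complement as a list rose in 11 of 17 tested genes and fell in 0 (median slope 0.0212 log2 per month). Without the libraries of 24 months 1 member was called, and with the liver covariate 5. After C4b the smallest p belonged to Itgb2, the beta chain of complement receptor 3, which rose by 0.0338 ± 0.0043 log2 per month and was at 7.73 ± 0.822 CPM (SD, n = 5) at 15 months and 11.2 ± 1.49 at 24 months. C3, the central component of the cascade and also a product of the liver, was at 3.33, 2.73, 20.1, 6.35 and 2.63 CPM at 2 months and at 24.2, 26.4, 12.3, 25.5 and 27.1 CPM at 24 months. The high library of 2 months, replicate 3, was the 1 with Alb at 128 CPM. C3 rose by 0.0844 ± 0.02 log2 per month (adjusted p = 0.00704), and its adjusted p was 0.113 with the liver covariate. Apob, an apolipoprotein of liver and gut, followed the same libraries, with 5.56 CPM in replicate 3 of 2 months and 0.152 to 0.78 CPM in the other 4. Its slope of 0.112 ± 0.033 log2 per month (adjusted p = 0.0249) had an adjusted p of 0.365 with the liver covariate, and 0.0597, 0.0532 and 0.0604 without replicate 2, 4 or 5 of 24 months. Of 28 tested liver genes 11 rose, and 27 did so without replicate 3 of 2 months. The count was 6 and 7 without replicate 2 or 5 of 2 months, and 5, 5 and 3 without replicate 2, 4 or 5 of 24 months.

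Genes of activated microglia, the phagocytic state seen around lesions and in aged tissue, rose in 16 of 18 tested members and fell in 0. The count was 10 with the liver covariate and 1 without the libraries of 24 months, and the median rate was 0.00324 log2 per month from 2 to 9 months and 0.0388 from 15 to 24 months. Clec7a, a receptor for fungal glucans that marks this state, had the smallest p of all called slopes together with Il33 (adjusted p = 7.02e-08). It was at 0.58, 0.506, 0.35, 0.501 and 0.253 CPM at 2 months, 0.791, 0.551, 0.484, 0.421 and 0.369 at 9 months, 0.979, 0.74, 1.01, 1.16 and 0.842 at 15 months and 3.84, 2.9, 1.92, 2.28 and 1.62 at 24 months. The libraries of 2 and 9 months overlapped, those of 15 months were above all but 1 of the 9 month libraries, and all 24 month libraries were above all others. Clec7a rose by 0.127 ± 0.011 log2 per month, 6.92-fold over 22 months, on 5 to 112 counts per library. Cst7, a cathepsin inhibitor of the same state, rose by 0.142 ± 0.018 log2 per month on 1 to 44 counts per library. It was at 0.512 to 1.51 CPM at 24 months and at most 0.327 CPM at each younger age. Cst7 passed the low-count filter only through the libraries of 24 months, so its rise is a description. Mpeg1, a pore-forming protein of macrophages and microglia, rose from 43.2 ± 2.85 CPM (SD, n = 5) to 64.2 ± 6.63 CPM, 0.027 ± 0.0029 log2 per month.

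Of 13 genes of homeostatic microglia 5 rose and 1 fell (4 and 0 with the liver covariate). The count of rises was 3 without replicate 3 or without replicate 5 of 2 months. Fcrls, an Fc receptor-like protein of resident microglia, fell by 0.0306 ± 0.0071 (adjusted p = 0.00426, and 0.203 with the liver covariate). Of 20 lysosomal genes 9 rose and 0 fell, 5 without replicate 1 of 24 months and 6 with the liver covariate. Ctss, cathepsin S, which trims the invariant chain in microglia, rose by 0.0261 ± 0.0035 log2 per month with 99% of its age variation on the line. Ctsz, cathepsin Z, rose by 0.0209 ± 0.0032 log2 per month but went from 36.9 ± 1.58 CPM (SD, n = 5) at 9 months to 33.9 ± 2.78 at 15 months and 44 ± 1.38 at 24 months, a departure from the line (adjusted p = 0.00123).

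Markers of reactive astrocytes rose in 7 of 15 tested genes and fell in 0 (5 with the liver covariate, 1 without the libraries of 24 months), and general astrocyte markers rose in 5 of 15 and fell in 0 (2 with the liver covariate). Ggta1, a galactosyltransferase induced in reactive astrocytes, rose by 0.0285 ± 0.0046 log2 per month with 99.2% of the age variation on the line. Aspg, an asparaginase on the same list, rose by 0.0402 ± 0.006. S100b, a calcium-binding protein of astrocytes, rose by 0.0154 ± 0.0023 log2 per month, from 117 ± 11.1 CPM (SD, n = 5) to 150 ± 8.51 CPM. Sox9, the transcription factor of the lineage, rose by 0.0128 ± 0.0031 (adjusted p = 0.00521, and 0.184 with the liver covariate).

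Myelin and mature oligodendrocyte genes were split. Of 22 tested, 7 rose and 2 fell (5 and 1 with the liver covariate), and 14 departed from the line (30% of all genes tested departed), with a median rate of -0.0201 log2 per month from 2 to 9 months and 0.0205 from 15 to 24 months. Without the libraries of 2 months 11 rose. Il33, an alarm cytokine kept in the nucleus of oligodendrocytes and astrocytes, was at 49.4, 59.2, 60.4, 61 and 64.6 CPM at 2 months and at 76, 69.8, 71.1, 65.8 and 69.5 at 9 months. It was at 84.7, 81.4, 78.2, 83 and 84.3 at 15 months and at 89.3, 87.5, 90.6, 86.7 and 96.3 at 24 months. No library of an older age lay within the range of a younger age. Il33 rose by 0.028 ± 0.0025 log2 per month (1.96% per month). Trf, the transferrin made by oligodendrocytes and also by the liver, rose by 0.0242 ± 0.0035 log2 per month, mostly after 15 months (11.9 ± 1.34 CPM at 15 months and 16 ± 1 CPM at 24 months, SD, n = 5).

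Genes of oligodendrocyte precursors rose in 4 and fell in 4 of 18 tested (3 and 1 with the liver covariate). Bcas1, a marker of oligodendrocytes that are forming myelin, went the other way and rose by 0.0185 ± 0.0033 log2 per month. Cell division genes fell in 3 and rose in 1 of 15 tested (2 and 0 with the liver covariate). Top2a, the topoisomerase of dividing cells, was at 2.75, 2.99, 3.21, 4.68 and 2.58 CPM at 2 months, 1.37, 1.95, 1.64, 1.31 and 1.43 at 9 months, 1.14, 0.935, 1.29, 0.951 and 0.749 at 15 months and 1.92, 0.682, 0.891, 0.819 and 0.759 at 24 months. The 2 month libraries were above all others, and replicate 1 of 24 months was far above the rest of its age. Top2a fell by 0.079 ± 0.012 log2 per month, 3.33-fold over 22 months (adjusted p = 0.00011). Cenpf, a kinetochore protein, fell by 0.0468 ± 0.0078, and Mki67, the proliferation antigen, by 0.0507 ± 0.011 (adjusted p = 0.00243, and 0.063 with the liver covariate). Without the libraries of 2 months none of these 3 falls was called: the slopes were -0.0375 log2 per month for Top2a (adjusted p = 0.0872), -0.0224 for Cenpf (0.157) and -0.0159 for Mki67 (0.324). Ccnd2, the cyclin D of neural precursors, fell along the line, from 85.2 ± 13.1 CPM (SD, n = 5) through 76.1 ± 6.08 and 61.8 ± 2.97 to 51.1 ± 3.4 CPM, -0.0348 ± 0.0035 log2 per month with 98.2% of the age variation on the line.

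Genes of immature neurons fell in 9 of 20 tested and rose in 0, where 8.32% of all genes tested fell (median slope -0.00973 log2 per month, 7 falls with the liver covariate). Without the libraries of 2 months 4 fell. Dpysl3, a phosphoprotein of growing axons, was at 76.2, 79, 78.6, 82 and 74.1 CPM at 2 months and at 67.7, 60.4, 60.9, 60.1 and 59 CPM at 9 months. It was at 59.1, 56.6, 56.3, 60.9 and 64 CPM at 15 months and at 52.5, 53.2, 50.8, 54.9 and 55.5 CPM at 24 months. The 2 month libraries stood above all others, the 24 month libraries below all others, and 9 and 15 months overlapped. Dpysl3 fell by 0.0234 ± 0.0024 log2 per month (adjusted p = 2.28e-07), and its departure had an adjusted p of 0.00283. Nrep, a neuronal regeneration protein, fell by 0.0327 ± 0.0038 log2 per month with a larger departure (adjusted p = 8.28e-06): its rate was -0.08 log2 per month from 2 to 9 months and 0.000734 from 9 to 15 months.

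Among neuronal genes, glutamate and GABA receptor subunits fell in 11 of 24 tested and rose in 0 (median slope -0.00528 log2 per month). The count was 3 with the liver covariate and 1 without the libraries of 24 months, and 11 of the 24 had a lower rate late than early (11.3% of all genes tested). The changes were small. Gria4, an AMPA receptor subunit, fell by 0.00723 ± 0.0013 log2 per month, from 161 ± 4.22 CPM (SD, n = 5) to 143 ± 3.53 CPM, and Grin3a, an NMDA receptor subunit, by 0.00999 ± 0.002. Presynaptic vesicle genes fell in 3 of 20 and rose in 0 (1 without replicate 3 or 5 of 24 months, 0 with the liver covariate). Stx1a, a SNARE protein of vesicle fusion, fell by 0.0088 ± 0.0025 (adjusted p = 0.0173), and Cplx2, which clamps that fusion, by 0.005 ± 0.0015 (adjusted p = 0.0212, and 0.0592 or 0.0558 without replicate 3 or 5 of 24 months). Markers of neuronal identity rose in 1 and fell in 2 of 20 (1 and 0 with the liver covariate), near the 8.44% and 8.32% of all genes tested. Immediate early genes, which neurons transcribe within minutes of activity, had a slope below 0 in all 17 tested members and fell in 3, with 0 called with the liver covariate. The count was 6 and 5 without replicate 1 or 2 of 2 months, 5 without replicate 4 of 24 months, and 1 without replicate 4 or 5 of 2 months or any other library of 24 months. Nr4a2 fell by 0.0226 ± 0.0058 log2 per month (adjusted p = 0.0125). Nr4a3 fell by 0.0335 ± 0.0099 (adjusted p = 0.0265), and was not called without replicate 4 or 5 of 2 months (0.0606 and 0.0685) or replicate 1, 2, 3 or 5 of 24 months (0.0529 to 0.0707).

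The beta protocadherins rose in 12 of 22 tested members and fell in 0 (median slope 0.0184 log2 per month, 9 rises with the liver covariate). Their median rate was 0.0151 log2 per month from 2 to 9 months, 0.0267 from 9 to 15 and -0.000251 from 15 to 24. Pcdhb6 rose by 0.0461 ± 0.0044 log2 per month, from 3.57 ± 0.354 CPM (SD, n = 5) to 7.28 ± 0.404 CPM, and Pcdhb3 by 0.0338 ± 0.0037. The gamma protocadherins rose in 6 and fell in 3 of 20 tested, with 2 rises and 1 fall with the liver covariate. Pcdhga2 rose by 0.0282 ± 0.004 log2 per month, with a rate of 0.0631 from 2 to 9 months and 0.00829 from 15 to 24 months (adjusted p of the difference 0.00189), and Pcdhga7 by 0.0177 ± 0.0029. The clustered genes lie side by side on chromosome 18, and the gamma genes share their last exons, so their counts depend on how shared reads were counted, which is not known.

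**Figure D3:**
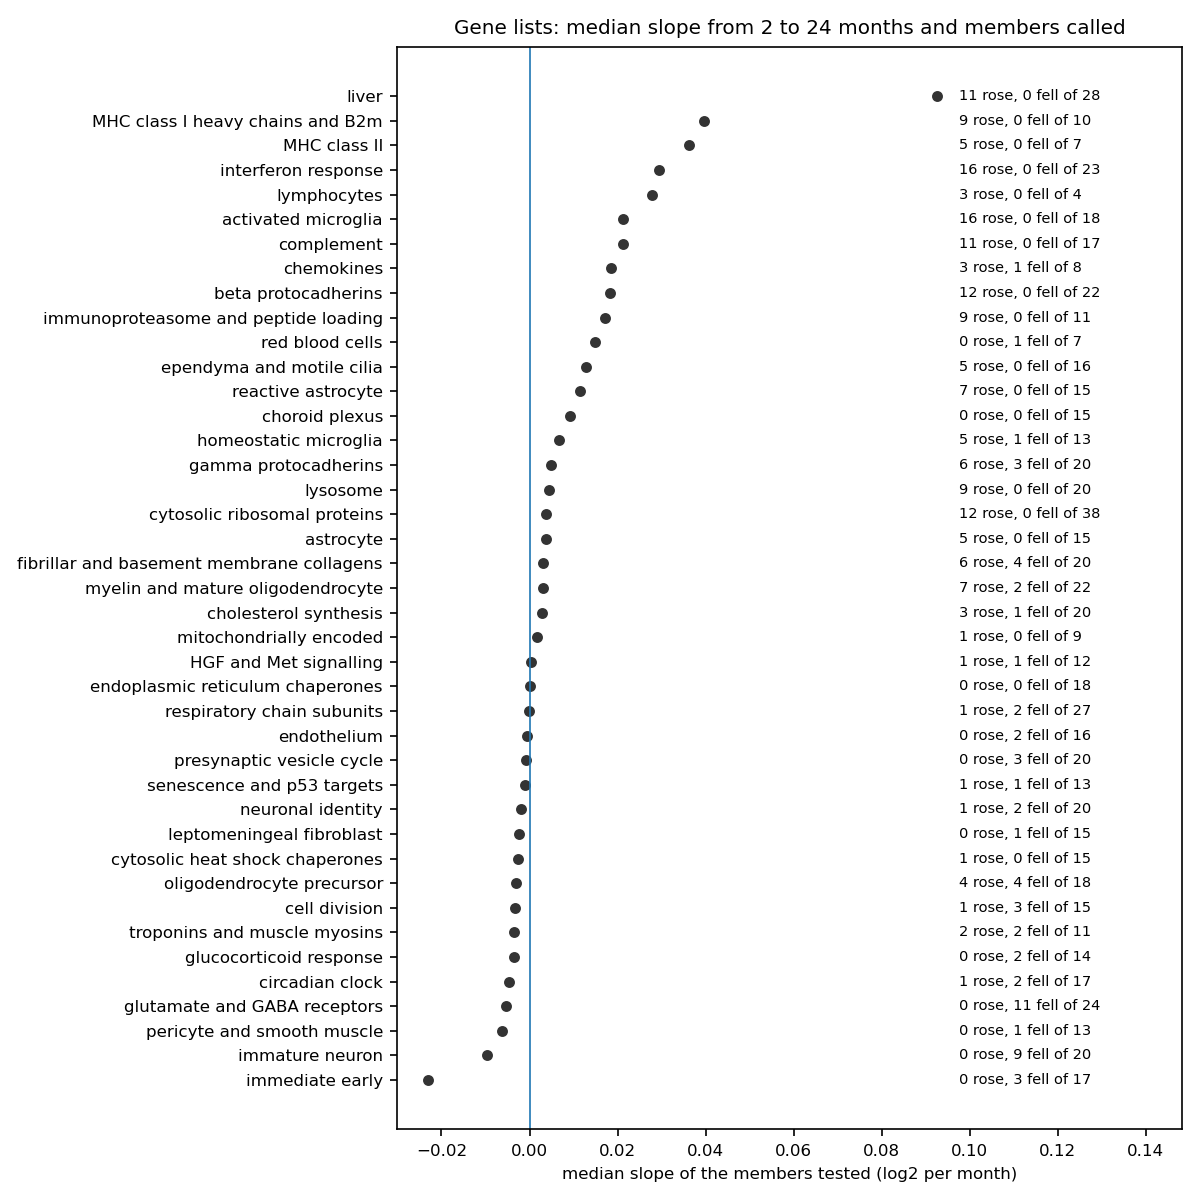
Median slope of the tested members (x axis, log2 per month) for each of 41 gene lists (y axis), with the number of members that rose and fell printed at the right; the vertical line is the median over all 17472 genes. MHC class I genes lie at 0.0397 and immature neuron genes at -0.00973 log2 per month.

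Fibrillar and basement membrane collagens rose in 6 and fell in 4 of 20 tested. The rises were led by Col5a3 (0.0336 ± 0.0049 log2 per month) and Col2a1 (0.042 ± 0.0068). The fibrillar collagens of connective tissue Col3a1 (-0.0434 ± 0.0086 log2 per month, adjusted p = 0.00213) and Col1a1 (-0.0393 ± 0.01, adjusted p = 0.0142) fell, and with the liver covariate (adjusted p = 0.205 and 0.248) 0 collagens fell and 3 rose. Leptomeningeal fibroblast genes fell in 1 of 15 and rose in 0 (0 with the liver covariate). Endothelial genes fell in 2 of 16 and rose in 0, also with the liver covariate. Over all genes tested 8.32% fell, and 7 of the 16 endothelial slopes were positive (median -0.000678 log2 per month). Itm2a, a membrane protein of brain endothelium, fell by 0.0232 ± 0.0045 log2 per month and Tek, the angiopoietin receptor, by 0.0138 ± 0.0034. Both departed from the line (adjusted p = 0.000441 and 0.00062), with 64.6% and 52.8% of the age variation on it. Itm2a fell mostly before 9 months. Tek went from 23.1 CPM at 2 months to 18.2 at 9 months, 20.6 at 15 months and 17.7 at 24 months. Without the libraries of 2 months the slopes of Itm2a and Tek were -0.00525 (adjusted p = 0.307) and -0.00442 (adjusted p = 0.539) log2 per month. Slc38a5, an amino acid transporter, fell by 0.0546 ± 0.015 log2 per month (adjusted p = 0.0159, and 0.218 with the liver covariate), and was at 11.8 CPM in replicate 1 of 2 months against 3.45 to 5.17 CPM in the other 4. Of 13 genes of pericytes and smooth muscle, 1 fell and 0 rose, while 7 departed from the line. The fall, also called with the liver covariate, was Notch3, the receptor of mural cells, at 27.5 ± 0.624 CPM (SD, n = 5) at 2 months and 22.4 ± 1.56 to 22.8 ± 1.01 CPM at the later ages.

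Ependymal and motile cilia genes rose in 5 of 16 and fell in 0 (2 with the liver covariate; 2 or 3 without replicate 2, 3 or 5 of 2 months or replicate 2, 3, 4 or 5 of 24 months), with Spag6, a protein of the ciliary axoneme, at 0.0522 ± 0.0063 log2 per month. Choroid plexus genes rose in 0 and fell in 0 of 15. Their median rate was -0.0346 log2 per month from 2 to 9 months and 0.0337 from 9 to 15, and Ttr was nearly missing in replicate 1 of 9 months. The absence of calls does not show that these genes held steady. Cytosolic ribosomal proteins rose in 12 of 38 and fell in 0 (3 with the liver covariate, 0 without the libraries of 24 months), by small amounts: Rpl8 by 0.00956 ± 0.0017 and Rpl4 by 0.00855 ± 0.0016 log2 per month. For the lists that follow, counts of at most 3 calls in a direction lie near the share over all genes tested (8.44% rose and 8.32% fell). Such counts say little about a list. Respiratory chain subunits rose in 1 and fell in 2 of 27, and mitochondrially encoded genes rose in 1 and fell in 0 of 9 (2 rises with the liver covariate). Cholesterol synthesis genes rose in 3 and fell in 1 of 20. Glucocorticoid response genes fell in 2 and rose in 0 of 14. Senescence genes and p53 targets rose in 1 and fell in 1 of 13: the fall was Zmat3, an RNA-binding p53 target, at -0.0118 ± 0.002 log2 per month. Red blood cell genes fell in 1 and rose in 0 of 7. With the liver covariate, 0 genes were called in the lists of the respiratory chain, cholesterol synthesis, glucocorticoid response and red blood cells, and in that of senescence the fall alone. The lists of neuronal identity, HGF and Met signalling, clock, cholesterol synthesis, glucocorticoid response, respiratory chain and senescence genes, with at most 3 calls in a direction, gained or lost calls as 1 of several single libraries was left out. Of 11 tested troponins and muscle myosins 2 rose and 2 fell (1 and 1 with the liver covariate). Tnnt2, the cardiac troponin T, rose from 5.54 ± 0.645 CPM (SD, n = 5) to 11.2 ± 1.05 CPM, 0.0438 ± 0.0042 log2 per month, and Tnnc1, the slow troponin C, fell from 6.22 ± 1.09 to 3.2 ± 0.331 CPM, -0.0448 ± 0.0065 log2 per month.

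Outside the lists, Neat1, the long noncoding RNA that builds paraspeckles in the nucleus, was at 128 to 139 CPM at 2 months, 177 to 220 at 9 months, 211 to 223 at 15 months and 245 to 296 at 24 months. It rose by 0.0426 ± 0.0033 log2 per month (3% per month, adjusted p = 8.13e-08), faster before 9 months (0.077) than after 15 months (0.0323, adjusted p of the difference 0.00158). Pink1, the kinase that marks damaged mitochondria, rose by 0.0136 ± 0.0014 log2 per month, from 330 ± 9.5 CPM (SD, n = 5) to 408 ± 18 CPM. Plekhb1, a membrane protein of photoreceptors and brain, rose by 0.014 ± 0.0016. Among the falls with the smallest p, Gpr26, an orphan receptor of the brain, fell by 0.0152 ± 0.0016 log2 per month (283 ± 6.44 to 223 ± 13.9 CPM), and Plppr4, a membrane protein of glutamatergic synapses, by 0.0131 ± 0.0016. Epha3 and Ephb2, receptors for ephrins in axon guidance, fell by 0.0247 ± 0.003 and 0.0197 ± 0.0025. Neurl1b, a ubiquitin ligase for Notch ligands, fell by 0.0188 ± 0.0024, Ust, a sulfotransferase of proteoglycans, by 0.0169 ± 0.0019, and Shroom2, an actin-binding protein, by 0.015 ± 0.0017. Dsg1a, a desmosomal cadherin, fell by 0.037 ± 0.011 (adjusted p = 0.0204, and 0.0533 or 0.055 without replicate 3 or 5 of 24 months).

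How well a straight line described the ages was measured in 2 ways: the share of the variation between the 4 age means in log2 CPM that lay on the line, and a test of the 2 further terms that the line leaves out. The median share was 78.3% among called slopes (81.5% for rises, 75% for falls), 22.3% among the others and 30.8% over all genes. Slope and share come from the same values, so the higher share of called genes is a description. Of the called slopes, 726 (24.8%) had a share of at least 90%, and the line accounted for a median of 43.7% of the variation over the 20 libraries. Departures were called for 5235 genes (30% of those tested), and for 877 of the 2927 called slopes (30%), the same percentage as in the rest. The 4 age means went up in all 3 steps for 586 rises (39.8%) and down for 449 falls (30.9%). Over all genes tested, called ones included, 10.4% moved 1 way in either direction. Slopes were called from the same values, so these higher percentages are also a description.

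Among changes of at least 1.5-fold in genes with a mean of at least 2 CPM, predicted genes and pseudogenes left out, the straightest rises included Ifit3, H2-Aa, Plekha4, Tap2 and Ggta1, with shares of 99.2% to 100%. Plekha4, a phosphoinositide-binding protein, rose by 0.0362 ± 0.006 log2 per month. The straightest falls were Gpr17, Abi3bp, Ccnd2, Zfp804b, Slc47a1 and Zfp57, with shares of 95.3% to 99.8%. Abi3bp, an extracellular matrix protein, fell by 0.0323 ± 0.0066 log2 per month. Zfp57, which keeps imprints methylated, fell by 0.0285 ± 0.0039, Zfp804b, a zinc finger protein, by 0.0331 ± 0.0063, and Slc47a1, an exporter of organic cations, by 0.0269 ± 0.0053.

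**Figure D4:**
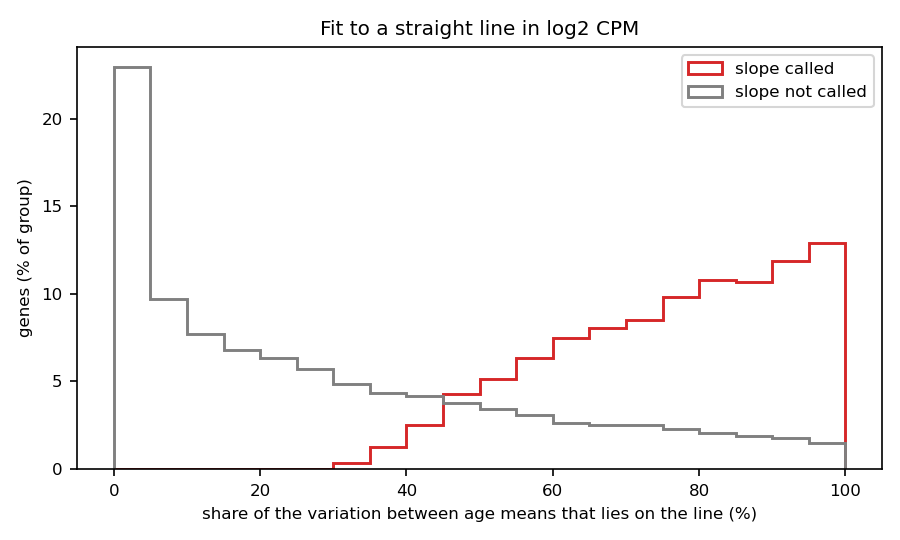
Percent of genes (y axis) by the share of the variation between the 4 age means that lies on the straight line in log2 CPM (x axis, percent), for genes with a called slope (red) and the others (grey). The called genes pile up towards 100% with a median of 78.3%, and the others towards 0 with a median of 22.3%.

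Median rates of called slopes were larger in later intervals, but for most called slopes the late and early rates did not differ by test. The median rate of called rises was 0.00839 log2 per month from 2 to 9 months, 0.0141 from 9 to 15 and 0.02 from 15 to 24, and that of called falls was -0.00511, -0.00801 and -0.0134. A test of the late rate (15 to 24 months) against the early rate (2 to 9 months) passed for 3821 genes over all (21.9%), 1850 higher (10.6%) and 1971 lower (11.3%). In the 12 libraries with Alb at 10 CPM or more, of which 1 was of 2 months, it passed for 156 higher and 188 lower. With the GC correction it passed for 1344 and 1894, and departures from the line for 3487 in place of 5235 genes; the GC gap was below 0 in all 5 libraries of 15 months, which enter the late rate. With library size scaled by total counts alone, 2634 were higher and 1342 lower. Among the 1474 called rises, the late rate was higher for 198 and lower for 69, against the 10.6% and 11.3% of all genes tested. Among the 1453 called falls, it was lower, that is a faster fall, for 299 and higher for 104. The difference did not pass for 1207 rises and 1050 falls. C4b (0.105 ± 0.026 early, 0.137 ± 0.018 late) and Gpr17 were among these, and Met, Pcdhb9, Neat1 and Nrep among the genes that changed faster early.

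**Figure D5:**
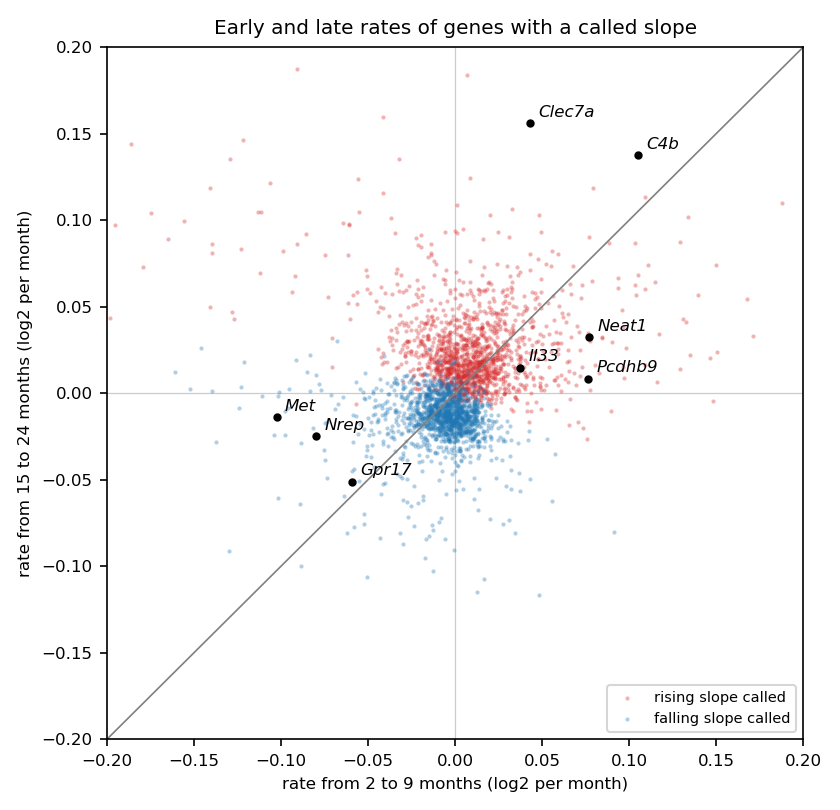
Rate from 15 to 24 months (y axis) against rate from 2 to 9 months (x axis), both in log2 per month, for genes with a called rise (red) or fall (blue); the diagonal marks equal rates, and 10 called genes lie outside the axes. Met, Nrep, Neat1 and Pcdhb9 lie towards a faster early rate, Gpr17 and C4b near the diagonal, and Clec7a above it.

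Single ages carried the call of many of the named slopes. Cst7, Ccl3 and Cd79b were too low to be tested over 2, 9 and 15 months alone. Over 2, 9 and 15 months alone these were not called (adjusted p 0.0556 to 0.99): Abi3bp, Apob, Aspg, Bag3, Bcas1, Bst2, C3, Col1a1, Col3a1, Col5a3, Cplx2, Ctss, Ctsz, Cxcl10, Dsg1a, Gbp4, Gria4, Grin3a, H2-Ab1, Itgb2, Nlrc5, Nr4a2, Nr4a3, Plekha4, Rpl4, Rpl8, Shroom2, Sox9, Stx1a, Tek, Trf and Zmat3. Over 9, 15 and 24 months alone, Abi3bp, Bag3, Cenpf, Fcrls, Gbp4, H2-Aa, H2-Ab1, Itm2a, Mki67, Notch3, Slc38a5, Stx1a, Tek and Top2a were not called (0.0576 to 0.795). In the 12 libraries with Alb at 10 CPM or more, Abi3bp, Apob, C3, Cd74, Cd79b, Cenpf, Col1a1, Col3a1, Cplx2, Dsg1a, Fcrls, Gbp4, H2-Aa, H2-Ab1, H2-Q7, Mki67, Nlrc5, Notch3, Plekha4, Slc38a5, Tek and Zfp804b were not called (0.0669 to 0.568).

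Of the 3821 genes with unequal rates, 3151 had no called slope, which is near the share over all genes tested (14545 of 17472). In 3434 of the 3821 the early and late rates had opposite signs. A test of the difference of the rates favours opposite signs, and their share over all genes was not counted, so this is a description. Nr1d1, the clock repressor REV-ERB alpha, had the smallest p of a departure (adjusted p = 1.95e-08). It was at 136, 125, 129, 127 and 142 CPM at 2 months and at 97.4, 103, 97, 87.3 and 98.6 CPM at 9 months. It was at 103, 97.6, 106, 107 and 113 CPM at 15 months and back at 126, 138, 129, 136 and 134 CPM at 24 months. The libraries of 2 and 24 months overlapped, and all of them stood above all libraries of 9 and 15 months. Of 17 clock genes 10 departed (30% of all genes tested did), 1 rose and 2 fell (0 and 0 with the liver covariate). The rises and falls lie near the 8.44% and 8.32% of all genes tested. The labels used here give no hour of sampling.

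Other genes were also low at 9 months. Zfp46, a zinc finger protein, was at 44.6 ± 2.97, 29.4 ± 1.77, 34.1 ± 2.67 and 38.6 ± 1.97 CPM (SD, n = 5) at the 4 ages. Mir9-3hg, the host transcript of a miR-9 gene, was at 30.4 ± 1.35, 20.9 ± 1.58, 26.9 ± 2.35 and 28.9 ± 1.72 CPM, and Tnni1, the slow troponin I, at 4.21 ± 0.345, 2.37 ± 0.245, 2.79 ± 0.466 and 4.76 ± 0.373 CPM. Chga, chromogranin A of secretory granules, and Rplp1, a ribosomal stalk protein, were lowest at 9 or 15 months and highest at 24 months (169 ± 6.86 and 104 ± 3.46 CPM). Apcdd1, an inhibitor of Wnt signalling, dropped from 29.2 ± 1.18 CPM at 2 months to 17.8 ± 1.1 at 9 months and stayed at 20.3 ± 1.52 to 20.5 ± 2.1 CPM, and its slope was called (-0.0194 ± 0.0065 log2 per month, adjusted p = 0.0452) with only 32.2% of the age variation on the line.

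The opposite shape was found in chaperones, proteins that fold other proteins. Of 18 chaperones of the endoplasmic reticulum none had a called slope, with or without the liver covariate, 16 departed from the line (against 30% of all genes) and 15 had a lower late than early rate. Their median rate was 0.0452 log2 per month from 2 to 9 months, -0.0243 from 9 to 15 and -0.0125 from 15 to 24. Without the libraries of 2 months 14 of them fell. Pdia3, a disulfide isomerase, was at 206, 206, 209, 203 and 202 CPM at 2 months, 235 to 291 at 9 months, 213 to 280 at 15 months and 215 to 243 at 24 months. All libraries of 2 months were below all later libraries. Of 15 cytosolic heat shock chaperones, 10 departed and 1 rose, also with the liver covariate. It was Bag3, a co-chaperone of selective autophagy (0.018 ± 0.0048 log2 per month, adjusted p = 0.0116). Dnaja4, a heat shock protein of the Hsp40 family, was highest at 9 months (28.7 ± 0.973, 36.7 ± 1.38, 32.1 ± 1.34 and 29.4 ± 0.748 CPM, SD, n = 5). The splicing factor Rbfox2 had the same order of ages (315 ± 4.06, 369 ± 8.84, 352 ± 12.1 and 330 ± 5.15 CPM), and Zfp831, a zinc finger protein, was high at 9 and 15 months (42.3 ± 1.54 and 42.7 ± 1.41 CPM).

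The libraries of 30 months were set beside the line without a test. Replicate 1 had a GC gap of 0.13 log2, within the range of the younger libraries, and the other 4 had 1.1 to 2.1. C4b, for which the line gave 155.6 CPM at 30 months, was at 138.5, 203.8, 148.6, 228.3 and 197.8 CPM. Gpr17 (22.78 CPM on the line) was at 28.88, 32.56, 31.05, 38.17 and 34.05 CPM, above the line in all 5. Met (4.77 CPM on the line) was at 6.332, 3.538, 3.411, 3.812 and 2.38 CPM, and Pcdhb9 (29.14 CPM on the line) at 27.38, 22.76, 24.15, 25.9 and 21.13 CPM, below the line in all 5. Il33, with 105.9 CPM on the line, was at 96.78 CPM in replicate 1, and its other values were 45.51 to 76.89 CPM. With all 25 libraries in the fit, 8361 slopes were called, and 1838 of them were among the 2927.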

How the data were processed

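The deposited table of raw counts per gene was used. Per the submitters' processing notes, the authors used CASAVA 1.7, STAR 2.4.1d and featureCounts 1.4.6-p4 with the build GRCm38; the annotation release, strand setting and treatment of shared reads are not given in the sources used here. The deposited table of length-scaled values was not used. Of 47729 genes, 47310 were matched by identifier to GENCODE M21, which gave symbols and coordinates.

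Genes were filtered by edgeR's filterByExpr over the 4 ages, libraries were scaled by TMM, and a slope per month was tested with the robust quasi-likelihood test of edgeR 4.0.16 in R 4.3.3, adjusted by Benjamini-Hochberg over 17472 genes at 0.05. The departure tests 2 further polynomial terms, and the rate test compares 15 to 24 with 2 to 9 months in a fit of 1 mean per age. SE values are the size of the slope over the square root of F. The share on the line uses log2 CPM with a prior count of 2. CPM levels per library carry counting error besides the spread between libraries, so low counts are the least precise. The procedure was tested on simulated data.

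The library ages come from the labels. Libraries of 1 age differed by more than sampling noise (chi-square per degree of freedom 1.54 to 6.87), so none was taken as a duplicate. Alternatives were other scalings and filters, limma-voom (limma 3.58.1), DESeq2 1.42.0, a GC correction (lowess span 0.3), a liver covariate, log2 of months, leaving out each age or library, and all 25 libraries. The split at 10 CPM of Alb was added after seeing the data.

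The members and gene lists were chosen with earlier results of these data known. Genes named are C4b, Gpr17, Met and Pcdhb9. Added are, at a mean of at least 2 CPM and without predicted genes, pseudogenes, receptor segments and liver genes, 12 rises and 12 falls by smallest p, the 8 steepest of each, the 6 straightest of each past 1.5-fold, and the 8 smallest p for the departure and for the rate difference. From each list the 2 members with the smallest slope p are added. Of 124 such genes 28 are not reported here.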

Additional observations from a re-analysis of the deposited data

Results flagged for a closer look

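In a group of 5 libraries, a library was marked where its gap to the nearest other was more than 0.71 of the whole range, which chance gives in about 1 in 20 groups. Of 384 groups (96 genes at 4 ages), 26 were marked.

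Replicate 1 of 24 months was high for 8 genes of immunity and cell division. It was at 23.7 CPM for Gbp4 (3.27 to 8.84 in the other 4), 8.65 for Nlrc5 (2.94 to 4.11), 7.96 for H2-Q4 (3.6 to 4.8) and 41.2 for Cd74 (14.4 to 20). It was at 1.96 CPM for Cxcl10 (0.426 to 0.775), 102 for Ctss (82.6 to 86.8), 1.92 for Top2a (0.682 to 0.891) and 2.64 for Mki67 (1.28 to 1.55). The slopes of Gbp4 (adjusted p = 0.229) and Cd79b (0.0709) were not called without this library, and 2055 slopes were called in place of 2927. Alb was at 43 CPM in it, where the libraries of its age had 38.5 to 171 CPM.

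The library of 2 months with Alb at 128 CPM, replicate 3, was at 20.1 CPM for C3 (2.63 to 6.35 in the others) and 5.56 for Apob (0.152 to 0.78). At 24 months replicate 3 was low for C3, at 12.3 CPM (24.2 to 27.1), and at 15 months replicate 1 was low for Apob, at 0.653 CPM (4.25 to 4.8).

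Replicate 1 of 2 months was at 11.8 CPM for Slc38a5 (3.45 to 5.17), 74.7 for Ctss (52.5 to 56.9), 7.83 for Itgb2 (6.28 to 6.57) and 75.4 for Nrep (83.5 to 86.6). Replicate 1 of 9 months, in which Ttr was nearly missing, was at 67.7 CPM for Dpysl3 (59 to 60.9), 7.09 for Met (7.95 to 8.11), 397 for Plekhb1 (361 to 368) and 15.7 for Cd74 (10.9 to 11.8).

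The other marks were single values. Replicate 3 of 2 months was at 314 CPM for Pink1 (332 to 336), and replicate 4 of 2 months at 4.18 for H2-Ab1 (2.9 to 3.14). At 15 months, replicate 1 was at 19.5 CPM for Ifi27 (21.3 to 21.6), replicate 2 at 7.48 for Met (6.49 to 6.78) and replicate 3 at 92.6 for Rplp1 (83.4 to 84.2). Replicate 2 of 24 months was at 5.07 CPM for Fcrls (3.23 to 3.53).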

How the results depend on the processing

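No paired analysis was possible because the replicate numbers are in accession order and pair no libraries. Against 2927 called slopes (1474 rises and 1453 falls), RLE scaling, total counts, both filters, limma-voom, DESeq2, the GC correction, and leaving out 9 or 15 months gave 2391 to 3424 calls. The liver covariate gave 914 (525 and 389), log2 of months 1822 (961 and 861), leaving out 24 months 1340 (646 and 694), leaving out 2 months 4705 (2252 and 2453), and all 25 libraries 8361 (4227 and 4134). The 12 libraries with Alb at 10 CPM or more, with 1 library of 2 months that is assumed to vary like the rest, gave 1483 (783 and 700), and the 8 others, with no library of 24 months, 516 (291 and 225). Of the 2927 genes, 1236 and 121 were shared with these 2 sets, 521 with the fit without 24 months and 1890 with the fit without 2 months. Leaving out 1 library at a time gave 2055 to 3153 calls (1053 to 1570 rises and 1002 to 1619 falls), fewest without replicate 1 of 24 months. Against 5235 departures the GC correction gave 3487, the 12 libraries 1419, and leaving out 1 library 4241 to 5227. The late rate was higher for 156 and lower for 188 genes in the 12 libraries, and for 1446 to 1822 and 1757 to 2084 genes as 1 library was left out, against 1850 and 1971. Settings that leave out libraries or ages also have fewer or other samples. What made the counts differ between settings was not tested. Of 86 named slopes, 72 kept their direction and side of the threshold with the liver covariate, 51 of 83 without 24 months and 17 of 83 in the 8 libraries.

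Slopes that turned direction, none of them in the libraries left out 1 at a time, were these, in log2 per month. With all 25 libraries, they were Neurl1b at 0.000142, Rpl4 at -0.0134, Notch3 at 0.0076, Stx1a at 0.00257, Cplx2 at 0.0043 and Pdia3 at -0.0112. In the 8 libraries with little Alb, they were Col5a3 at -0.000504, Zmat3 at 0.00427, Rpl4 at -0.00209, Nr4a2 at 0.0112, Dsg1a at 0.0264, Apob at -0.00143 and Nr4a3 at 0.00194. Without 2 months, they were Notch3 at 0.00147 and Pdia3 at -0.011, and without 24 months Dsg1a at 0.000616. Depth limits the genes below 1 CPM most: Cst7 rests on 1 to 44 counts per library.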
